A study of Mus musculus with 8 samples.

Results

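Tight junctions were examined through 9 genes of the deposited count table, chosen by symbol: the claudin genes Cldn1, Cldn3, Cldn4, Cldn7, Cldn8 and Cldn12, the occludin gene Ocln, the scaffold gene Tjp1 and the junctional adhesion molecule gene F11r. All 9 symbols were found among the 23171 genes of the table, and 8 of the 9 had enough counts to be tested. The table holds epidermal RNA of mice in which Hnrnpu, which encodes the nuclear RNA-binding protein hnRNP-U, was deleted in the epidermis (cKO, n = 4 libraries) and of control mice labelled WT (n = 4). Both groups received imiquimod, which activates Toll-like receptors and brings on psoriasis-like inflammation of mouse skin, and all libraries carry the same batch label. The design text speaks of 4 mice per genotype. The sources used here do not name the Cre driver, the deleted exons, the strain, the age or the alleles carried by the WT mice, and no untreated skin was analysed here.

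Tight junctions seal the gap between neighbouring epithelial cells. Claudins, small membrane proteins that cross the membrane several times, polymerise into the strands of the seal and set which ions and molecules can pass. Occludin and the junctional adhesion molecule JAM-A (F11r) sit beside them, and the scaffold ZO-1 (Tjp1) ties the membrane proteins to actin. In mouse epidermis the seal lies in the granular layer, below the cornified layer, and claudin-1 is needed for it: newborn mice without Cldn1 lose water through the skin and die.

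Libraries held 37158621 to 38865722 counts. Hnrnpu ran from 190 to 373 CPM (CPM being the read count scaled to a common library size with TMM factors) in cKO and from 424 to 455 CPM in WT, so its RNA was lower in each cKO library but still present. It had a log2 fold change of -0.51 ± 0.19 (SE) and did not pass the edgeR quasi-likelihood test (adjusted p = 0.191). The first principal component separated the genotypes, and along the second the cKO libraries spread, with replicates 1 and 4 at 36.7 and 56.8 and replicates 2 and 3 at -35.8 and -27.7. The labelled cell type, keratinocytes, was borne out by its markers: the summed CPM of 7 basal keratinocyte genes was at least 16592 and that of 8 suprabasal genes at least 42719 in every library, whereas 6 fibroblast genes summed to at most 9.92 CPM. Markers of other cells were counted too. Over the libraries, 8 melanocyte genes summed to 35.9 to 123 CPM and 7 macrophage genes to 30.7 to 69.1 CPM. The sum of 5 T cell genes was 9.94 to 45.7 CPM. In bulk RNA a change in the number of cells of a type and a change in RNA per cell cannot be told apart.

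One member passed the test between the genotypes and the others did not. Cldn3 went from nearly no reads in WT to a low but countable level in each cKO library. The 2 main epidermal claudins, Cldn1 and Cldn4, and Ocln had higher means in cKO, and Tjp1 and F11r had lower means, by amounts that did not pass the test across the genome. By the edgeR quasi-likelihood test 1 of the 8 tested members was called higher and 0 lower at an adjusted p below 0.05, where 1.32% of the 14004 tested genes were called in either direction, 0.671% higher and 0.65% lower. The members were chosen with the Cldn3 value known, so that count says nothing about the group. Of the 8, 5 had a log2 fold change above 0, against 51.9% of all tested genes. At an unadjusted p below 0.05, 2 members were higher and 1 lower, where 18.6% of all tested genes were past that level, 9.87% higher and 8.71% lower. DESeq2 and limma-voom each called 1 member higher and 0 lower, Cldn3 in both. DESeq2 called 7.51% of the genes it tested, 4.1% higher and 3.41% lower, and limma-voom 1.21%, 0.507% higher and 0.707% lower. The counts for the junction and marker lists further on stand against these same shares.

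**Figure D1:**
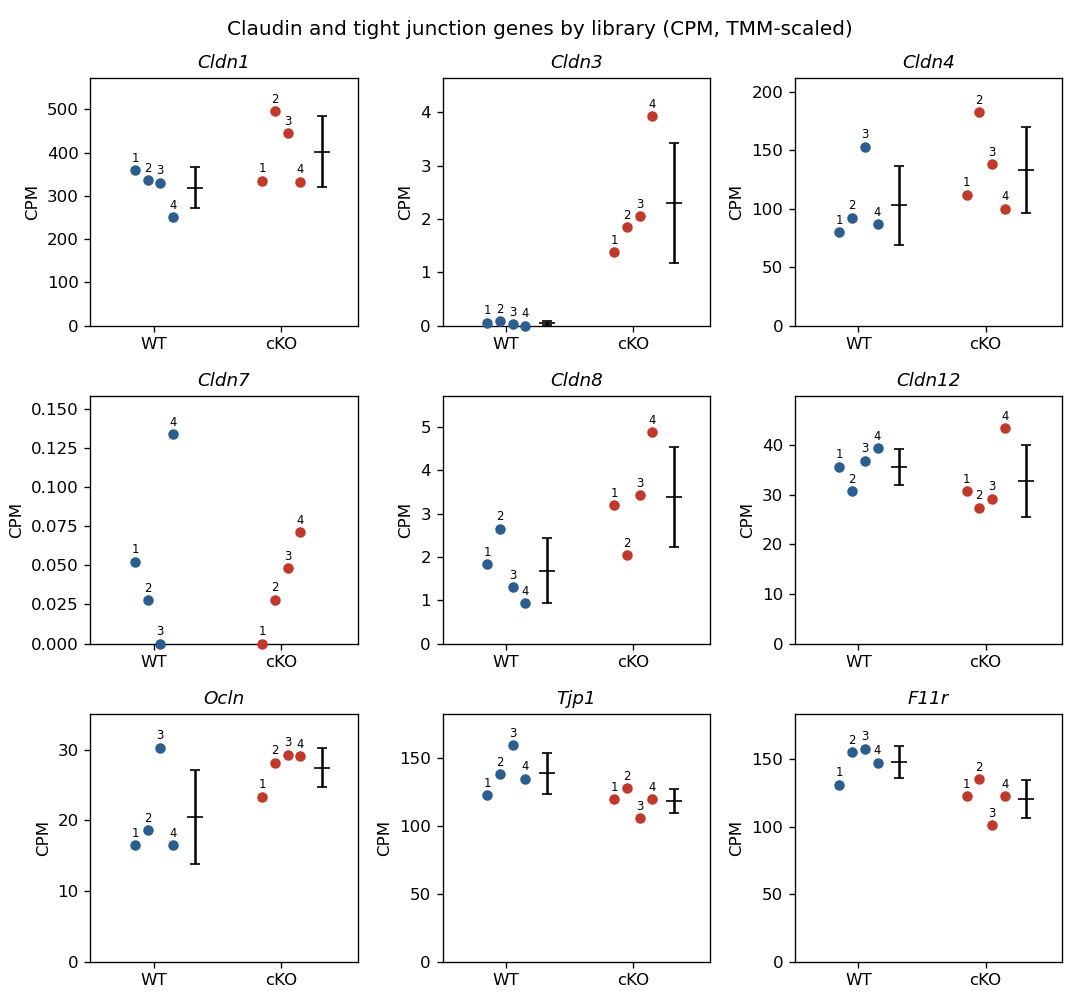
CPM (vertical axis, from 0, with its own range in each panel) of the 9 genes in the 4 WT (blue) and 4 cKO (red) libraries, numbered by replicate, with the mean and SD beside them except for Cldn7, which had at most 5 counts in a library. The groups separate for Cldn3, at no more than 0.0829 CPM in WT and at least 1.38 CPM in cKO, and overlap for the other 8 genes.

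Cldn3 encodes claudin-3, a sealing claudin of gut, lung and gland epithelia and, with claudin-4, a receptor of Clostridium perfringens enterotoxin. Its read counts were 53, 66, 85 and 165 in cKO replicates 1 to 4 and 2, 3, 1 and 0 in WT replicates 1 to 4. In CPM these are 1.38, 1.85, 2.05 and 3.93 in cKO against 0.0524, 0.0829, 0.0278 and 0 in WT. All cKO libraries lay above all WT libraries, and cKO replicate 4 stood highest. It was the 1 tested member whose groups did not overlap, where 11.1% of all tested genes had no overlap, 5.26% with cKO above WT and 5.82% with cKO below. Mean values were 2.30 ± 1.12 CPM (cKO) and 0.0408 ± 0.0353 CPM (WT; SD, n = 4 each). Summed over libraries, 369 reads against 6 give a ratio of 57.6 after scaling for depth (exact binomial 95% interval 26.2 to 158), an interval that covers counting error only. The fitted log2 fold change was 5.71 ± 0.64 (SE), with a 95% confidence interval of 4.28 to 7.15 and an edgeR adjusted p of 0.0115. Cldn3 passed the count filter only through the cKO libraries, and its rise was known when it was chosen, so the test describes a known value. Without WT replicate 3 the log2 fold change was 5.58 and the adjusted p was 0.0735, so the call is lost without that library. It holds 1 of the 6 WT reads. The fit without it called 8 of all tested genes, against 185 with every library.

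Even in cKO, Cldn3 was a minor claudin. On the FPKM scale, which divides counts by gene length and so allows levels of different genes to be compared, it stood at 1.10, 1.37, 1.74 and 3.36 in cKO replicates 1 to 4. That was 0.512% to 1.70% of the summed FPKM of the 19 claudin genes in the table, against at most 0.0381% in WT. Cldn4 alone held 30.2% to 35.2% of that sum in cKO.

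Cldn4, which encodes claudin-4, is the gene next to Cldn3 on chromosome 5 and the second most abundant claudin here. It stood at 112, 182, 138 and 100.02 CPM in cKO replicates 1 to 4 and at 79.6, 92.1, 153 and 86.8 CPM in WT replicates 1 to 4. WT replicate 3 lay above 3 of the 4 cKO libraries, and the other WT libraries lay below all of them. The log2 fold change was 0.37 ± 0.25 (SE), with a 95% confidence interval of -0.18 to 0.93 and an edgeR adjusted p of 0.458. It ran from 0.20 without cKO replicate 2 to 0.62 without WT replicate 3.

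None of the other tested genes around Cldn3 passed. In RefSeq's order those nearest to it, besides Cldn4, were Mettl27 at a log2 fold change of 0.32 ± 0.25 (SE, edgeR adjusted p = 0.54), Abhd11 at -0.08 ± 0.08 (adjusted p = 0.627), Stx1a at -0.85 ± 0.33 (adjusted p = 0.214) and Bud23 at -0.10 ± 0.11 (adjusted p = 0.686). These were named for their place, after the values of Cldn3 were known. In GENCODE M21 both Cldn3 and Cldn4 have a single exon, so no read across a splice junction can mark either, and Wbscr25 overlaps Cldn3 on the opposite strand. No source used here states whether counting was by strand, so reads from Wbscr25, which was not analysed here, could not be told from reads of Cldn3.

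The stretches just upstream of these neighbours are shown because one gene moved from near 0 and the other did not pass. They are the 250 bases before the annotated start in RefSeq (GRCm38.p6), read 5′ to 3′ on the strand of the gene, at chr5:134985964-134986213 on the plus strand for Cldn3 and at chr5:134946935-134947184 on the minus strand for Cldn4. Capitals mark matches on either strand to the AP-1 motif TGANTCA or to CAGGTG, the E-box that Snail proteins bind.
Cldn3: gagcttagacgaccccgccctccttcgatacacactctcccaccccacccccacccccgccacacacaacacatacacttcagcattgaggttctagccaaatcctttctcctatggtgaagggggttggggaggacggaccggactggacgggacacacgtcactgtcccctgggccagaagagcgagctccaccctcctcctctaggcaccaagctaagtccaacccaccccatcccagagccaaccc
Cldn4: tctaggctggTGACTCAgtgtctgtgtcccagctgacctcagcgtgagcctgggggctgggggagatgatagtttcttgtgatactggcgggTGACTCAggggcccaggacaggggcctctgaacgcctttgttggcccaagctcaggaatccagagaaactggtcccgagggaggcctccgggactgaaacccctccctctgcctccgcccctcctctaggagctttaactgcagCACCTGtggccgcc
The Cldn4 stretch holds 2 matches to the AP-1 motif, starting 240 and 158 bases before the start, and 1 CAGGTG match 14 bases before it, read on the opposite strand. The Cldn3 stretch holds none of these, and neither holds AACNGGTT, the motif of the epithelial Grainyhead-like (GRHL) factors. The motifs do not overlap each other in these stretches. Among all 32851 RefSeq start windows of this length, 6.75% hold TGANTCA, 17.2% hold CAGGTG and 1.79% hold AACNGGTT. Of the 9 members 8 have such a window, the exception being Cldn8. TGANTCA was also found for F11r, CAGGTG for F11r and for 1 of 2 windows each of Cldn7 and Ocln, and AACNGGTT for no member. The searched letters mark a match only.

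By length-scaled level the members fell into tiers. Cldn1 led at 75.5 to 147 FPKM over the 8 libraries, followed by Cldn4 at 44.3 to 93.9 and F11r at 43.7 to 60.9. Cldn1 exceeded Cldn4 within each of the 8 libraries although their ranges overlap, whereas Cldn4 exceeded F11r in 4 of 4 cKO libraries but in 1 of 4 WT libraries. Tjp1 followed at 11.9 to 15.9 FPKM, with no overlap with the genes above or below it. Cldn12 at 6.03 to 11.1 FPKM and Ocln at 3.82 to 7.46 overlapped, with Cldn12 the higher in 4 of 4 WT and 2 of 4 cKO libraries. Cldn8 lay between 0.388 and 2.24 FPKM. It exceeded Cldn3 in 4 of 4 WT libraries and in 1 of 4 cKO libraries. Cldn7 was last, at no more than 0.0900 FPKM. These orders are descriptions of levels, and no test was made between genes.

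Cldn1, the claudin whose loss opens the epidermal barrier in mice, stood at 335, 496, 445 and 333 CPM in cKO replicates 1 to 4 and at 360, 336, 331 and 250 CPM in WT replicates 1 to 4. cKO replicates 2 and 3 were above every WT library, and cKO replicates 1 and 4 lay within the WT range. The log2 fold change was 0.33 ± 0.17 (SE), with a 95% confidence interval of -0.04 to 0.71 and an edgeR adjusted p of 0.319. A rise above 1.63-fold lies outside that interval. Cldn1 held 53.5% to 56.2% of the summed claudin FPKM in cKO and 49.6% to 65.3% in WT. The sum itself averaged 228 ± 42.0 FPKM (cKO) and 168 ± 24.7 FPKM (WT; SD, n = 4 each), with ranges of 187 to 267 and 137 to 197 that overlap.

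Cldn8, known as a barrier claudin of the distal nephron and colon, was low. It stood at 3.20, 2.04, 3.43 and 4.88 CPM in cKO replicates 1 to 4 and at 1.84, 2.65, 1.31 and 0.937 CPM in WT replicates 1 to 4. Of the cKO libraries only replicate 2 lay inside the WT range. The log2 fold change of 1.01 ± 0.37 (SE; 95% confidence interval 0.17 to 1.85) did not pass, with an edgeR adjusted p of 0.194. As with Cldn3, cKO replicate 4 was the highest library.

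Cldn12, which encodes a claudin without the usual C-terminal PDZ-binding motif, stood at 30.7, 27.4, 29.2 and 43.3 CPM in cKO replicates 1 to 4 and at 35.6, 30.7, 36.8 and 39.4 CPM in WT replicates 1 to 4. cKO replicate 4 was above all WT libraries, and the other 3 were at or below the low end of the WT range. The log2 fold change was -0.13 ± 0.15 (SE, edgeR adjusted p = 0.713), and -0.29 without cKO replicate 4. Cldn7, the basolateral claudin of gut and kidney, had 14 reads in the 8 libraries together, from 0 to 3 in cKO and from 0 to 5 in WT, and was not tested.

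Ocln encodes occludin, a membrane protein of the MARVEL family that lines the strands. It stood at 23.4, 28.2, 29.3 and 29.1 CPM in cKO replicates 1 to 4 and at 16.5, 18.6, 30.3 and 16.5 CPM in WT replicates 1 to 4. The groups would separate but for WT replicate 3, the highest of the 8. The log2 fold change was 0.43 ± 0.20 (SE; 95% confidence interval -0.03 to 0.88, edgeR adjusted p = 0.295). Without WT replicate 3 it was 0.68 and still did not pass (adjusted p = 0.0793).

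The scaffold and the adhesion molecule had lower means in cKO. Tjp1, which encodes ZO-1, stood at 120, 128, 106 and 120 CPM in cKO replicates 1 to 4 and at 122, 138, 159 and 135 CPM in WT replicates 1 to 4. In CPM only cKO replicate 2 reached into the WT range, and in FPKM only cKO replicate 4. Its log2 fold change was -0.23 ± 0.11 (SE; 95% confidence interval -0.47 to 0.01, edgeR adjusted p = 0.285). F11r, which encodes JAM-A, stood at 123, 136, 101 and 123 CPM in cKO replicates 1 to 4 and at 131, 155, 158 and 148 CPM in WT replicates 1 to 4. The same held for its overlap with WT, and the log2 fold change was -0.30 ± 0.11 (SE; 95% confidence interval -0.55 to -0.05, edgeR adjusted p = 0.201). The lower bounds of these intervals are 0.723 and 0.685 times the WT level.

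**Figure D2:**
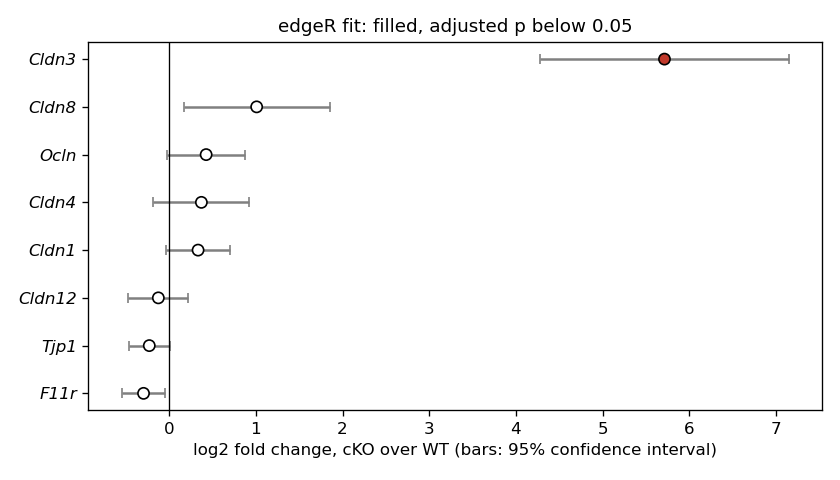
Fitted log2 fold change of cKO over WT (horizontal axis) for the 8 tested genes, with 95% confidence intervals as bars and a filled point for an adjusted p below 0.05. Cldn3 at 5.71 is the filled point, and the others lie between -0.30 and 1.01.

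The library in which a member was highest differed between members and, for some, between scales. In CPM, cKO replicate 2 was the highest cKO library for Cldn1, Cldn4, Tjp1 and F11r. In FPKM, which carries no TMM factor, that held for Cldn4 alone, with Cldn1 highest in cKO replicate 3 and Tjp1 and F11r in cKO replicate 4. On both scales WT replicate 3 was the highest WT library for Cldn4, Ocln, Tjp1 and F11r. In CPM, cKO replicate 2 and WT replicate 3 had the highest sums of 9 granular keratinocyte markers within their genotypes, at 21006 and 12920 CPM. On both scales cKO replicate 4 was the highest cKO library for Cldn3, Cldn8 and Cldn12. It had the lowest granular sum of the 8 libraries, 5540 CPM, and the highest sum of 10 upper hair follicle markers, 11068 CPM. Among the WT libraries, replicate 4 had the lowest granular and follicle sums, 5708 and 4291 CPM. In CPM that library was the lowest in WT for Cldn3 and Cldn8 and the highest in WT for Cldn12. The granular sums of the genotypes overlapped, at 5540 to 21006 CPM in cKO and 5708 to 12920 CPM in WT. Of the 9 granular genes 7 had a log2 fold change above 0 (median 0.58), with 2 higher and 1 lower at an unadjusted p below 0.05 by edgeR. After adjustment 0 were called higher by edgeR and 1 lower, the transglutaminase gene Tgm3, at -1.11 ± 0.20 (SE, adjusted p = 0.0363). That call was kept in 2 of 8 fits with a library left out, those without cKO replicates 2 or 4. The part of these cells in the values was not tested.

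Beside the rise of Cldn3, some markers of other epidermal compartments were called, most of them higher in cKO. Of the 10 upper hair follicle genes, 5 were called higher by edgeR and 0 lower: Krt75, Cst6, Krt79, Gata6 and Lgr6. Of all tested genes 0.671% were called higher and 0.65% lower. The marker lists, like the members, were chosen with earlier results of these data known, so these counts are descriptions. With single libraries left out, Krt75 was called in 8 of 8 fits and Cst6 in 5 (not without cKO replicate 1 or WT replicates 1 or 3). Krt79, Gata6 and Lgr6 were each called in 2, those without cKO replicates 2 or 4. Plet1, of the same list, was at -1.10 ± 0.38 (SE), not called by edgeR (adjusted p = 0.171) and called lower by DESeq2. DESeq2 called 6 genes of the list higher and 1 lower, against 4.1% and 3.41% of the genes it tested. The summed level was 6896 to 11068 CPM in cKO and 4291 to 4725 CPM in WT, without overlap. Most of it was Krt79, Krt17, Cst6 and Defb6. These averaged 2763, 2034, 1943 and 1537 CPM in cKO and 1432, 1584, 565 and 655 CPM in WT. Of 11 tested sebocyte genes 1 was called higher by edgeR, Cidea, with overlapping summed levels of 1233 to 3827 CPM in cKO and 921 to 1531 CPM in WT. All 11 had a log2 fold change above 0 (median 1.26), and DESeq2 called 8 higher and 0 lower. cKO replicate 4, the library with most Cldn3, had the lowest sebocyte sum of the cKO libraries. Of 8 melanocyte genes 1 was called higher by edgeR, Mitf, at sums of 61.1 to 123 CPM in cKO against 35.9 to 53.7 CPM in WT. All 8 had a log2 fold change above 0 (median 1.13), and DESeq2 called 4 higher and 0 lower. The melanocyte sum was highest in cKO replicate 1, the cKO library with least Cldn3, and stood at 61.8 CPM in cKO replicate 4. Of 10 genes of simple and glandular epithelium in the table, 6 were tested, with Slc12a2 called higher and Krt18 lower by edgeR. The summed level of the 10 was 111 to 137 CPM in cKO and 63.8 to 83.0 CPM in WT, without overlap. Most of it was Slc12a2, which averaged 102 CPM in cKO and 59.4 CPM in WT. Krt18 was near the floor, averaging 0.0753 CPM in cKO and 0.415 CPM in WT. Of 12 genes of the inner root sheath and hair shaft in the table, 6 were tested, with 0 called higher and 1 lower, the trichohyalin gene Tchh, at -1.30 ± 0.23 (SE, edgeR adjusted p = 0.0337). Of these 6, 4 had a log2 fold change above 0 (median 0.24), and DESeq2 called 1 higher, Hoxc13, and 2 lower. With single libraries left out, Mitf was called in 5 of 8 fits (not without cKO replicate 1 or WT replicates 3 or 4) and Cidea in 2, those without cKO replicates 2 or 4. Slc12a2 and Tchh were each called only without cKO replicate 2, and Krt18 only without cKO replicate 4. The keratins Krt8 and Krt19, of the simple and glandular list, had 19 and 13 reads in all 8 libraries together. The part of follicle, sebaceous or pigment cells in the Cldn3 value was not tested.

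**Figure D3:**
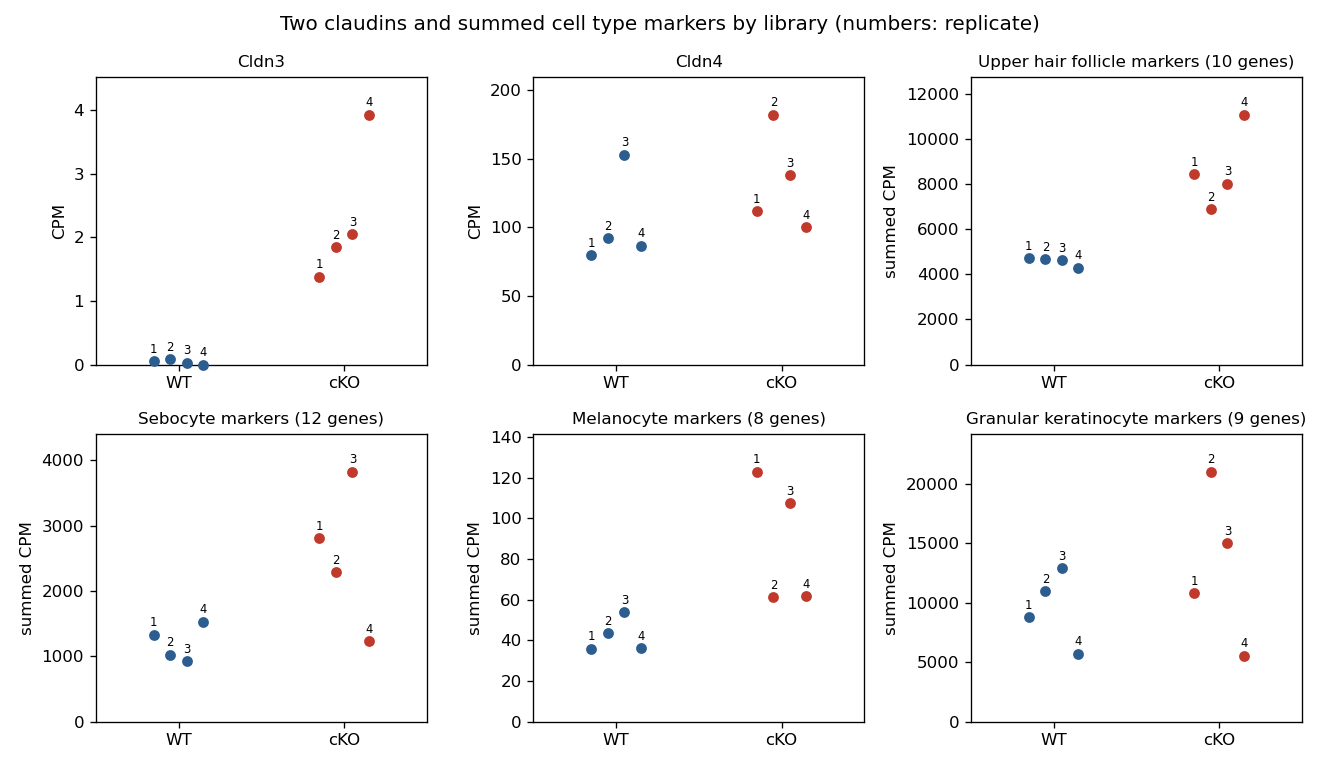
CPM of Cldn3 and Cldn4 and summed CPM of 4 marker lists (vertical axes, from 0) in each WT (blue) and cKO (red) library, numbered by replicate. Upper hair follicle and melanocyte sums, like Cldn3, do not overlap between the genotypes, and sebocyte and granular sums do. Within cKO the melanocyte sum is highest in replicate 1, where Cldn3 is lowest.

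Outside the junction and marker lists, the genes most like Cldn3 across the 8 libraries were Ttr, Esr1, Depp1, Dclk1 and Cryab. Likeness was the root mean square difference in log2 CPM, each gene centred on its mean, over 11425 candidate genes averaging 1 CPM or more. Genes of the lists, unnamed gene models and symbols marked as pseudogenes were left out of the candidates. The differences were 0.455, 0.526, 0.700, 0.718 and 0.740. The SD of Cldn3 itself over the libraries was 2.54 on that scale. Ttr, which encodes the thyroxine carrier transthyretin, had 54 to 311 reads in cKO and 0 to 4 in WT and, like Cldn3, was highest in cKO replicate 4. Esr1, the estrogen receptor gene, averaged 12.2 ± 3.74 CPM (cKO) and 0.698 ± 0.220 CPM (WT; SD, n = 4 each). All 5 were called higher by edgeR, which the measure of likeness nearly fixes. Ttr, Esr1, Depp1 and Dclk1 averaged below 1 CPM in WT, so they became candidates only through the cKO libraries. The fits that follow use the libraries by which the genes were picked, so they are descriptions. With single libraries left out, Esr1 and Dclk1 were called in 8 of 8 fits and Cryab in 7 (not without WT replicate 3). Ttr was called in 4 (not without cKO replicate 1 or WT replicates 1, 3 or 4) and Depp1 in 3 (not without cKO replicates 1 or 3 or WT replicates 2, 3 or 4).

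Of the other claudin genes, 15 are in the table with the claudin domain genes Cldnd1 and Cldnd2 among them, and 3 could be tested. By edgeR 0 were called, with 1 higher and 1 lower at an unadjusted p below 0.05. DESeq2 called 1, Cldn23, and limma-voom 0. Cldn23, a claudin of differentiated epithelia, stood at 19.5, 43.2, 37.2 and 17.1 CPM in cKO replicates 1 to 4 and at 9.70, 16.7, 18.0 and 8.54 CPM in WT replicates 1 to 4. Only cKO replicate 4 lay within the WT range, and as with Cldn1 and Cldn4 cKO replicates 2 and 3 were the highest. The log2 fold change was 1.14 ± 0.36 (SE, edgeR adjusted p = 0.134), with a DESeq2 adjusted p of 0.0238. Cldnd1 lay lower in each cKO library than in any WT library, at 155 ± 14.6 against 191 ± 10.1 CPM (SD, n = 4 each), with a log2 fold change of -0.30 ± 0.09 (SE) that did not pass (edgeR adjusted p = 0.135). Cldn5, the endothelial claudin, named after its values were seen, had 0, 0, 0 and 1 reads in cKO replicates 1 to 4 and 4, 2, 2 and 1 in WT replicates 1 to 4, too few to be tested.

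Other membrane proteins of the junction showed no call by edgeR among 6 tested, with 1 higher and 1 lower at an unadjusted p below 0.05, and a median log2 fold change of 0.26 beside 0.01 over all tested genes. The most abundant were Lsr, the lipoprotein receptor angulin-1 of tricellular contacts, at 0.04 ± 0.15 (SE, edgeR adjusted p = 0.92), and Cxadr, the coxsackievirus and adenovirus receptor, at 0.26 ± 0.13 (adjusted p = 0.323). DESeq2 called 1, Ildr1, which encodes angulin-2 and is named here after its value was seen. Its mean was 1.61 ± 0.680 CPM (cKO) against 0.409 ± 0.333 CPM (WT; SD, n = 4 each), with no overlap and an edgeR adjusted p of 0.107. limma-voom called 0.

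The scaffolds and plaque proteins under the membrane also gave no call by edgeR among 17 tested (median log2 fold change 0.15, from -0.71 to 1.20), with 2 higher and 2 lower at an unadjusted p below 0.05. Ybx3, the ZO-1-associated Y-box protein, was at 0.24 ± 0.15 (SE, edgeR adjusted p = 0.415). DESeq2 called 2 higher, Magi2 and Tjap1, both named after their values were seen, and limma-voom 0. Of 14 genes of the Par and atypical protein kinase C polarity complexes, which place the junction along the cell side, 12 had a negative log2 fold change (median -0.15) and 0 were called by edgeR, DESeq2 or limma-voom. Among them 0 were higher and 4 lower at an unadjusted p below 0.05. The GTPase gene Rac1 was at -0.25 ± 0.10 (edgeR adjusted p = 0.232) and the Par6 gene Pard6g at -0.46 ± 0.14 (adjusted p = 0.128).

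In adherens junctions, the cadherin contacts below the tight junction, 1 of 12 tested genes was called lower by edgeR and 0 higher. It was Vcl, which encodes vinculin, the link from catenins to actin under tension. In cKO replicates 1 to 4 Vcl stood at 75.7, 77.8, 67.6 and 78.9 CPM, and in WT replicates 1 to 4 at 105, 124, 120 and 146 CPM. The genotypes did not overlap, and the log2 fold change was -0.72 ± 0.11 (SE, edgeR adjusted p = 0.0301). The adjusted p ran from 0.0294 to 0.0868 when single libraries were left out, above the threshold without cKO replicates 1 or 3 or WT replicates 2, 3 or 4. DESeq2 called Vcl lower and Nectin3, named after its value was seen, higher, and limma-voom called Vcl alone. The cadherin gene Cdh1 was at -0.24 ± 0.09 (adjusted p = 0.216) and the β-catenin gene Ctnnb1 at 0.04 ± 0.10 (adjusted p = 0.867). The afadin gene Afdn, named after its value was seen, had no overlap between genotypes with means of 239 ± 38.6 CPM (cKO) and 179 ± 16.7 CPM (WT; SD, n = 4 each), and did not pass (adjusted p = 0.131).

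None of 6 genes of junction proteases, their inhibitors and associated proteins was called by edgeR, DESeq2 or limma-voom, with 1 higher and 0 lower at an unadjusted p below 0.05 (median log2 fold change 0.18). The protease inhibitor gene Spint2 was at 0.03 ± 0.10 (SE, edgeR adjusted p = 0.918). Of 13 transcription factor genes that govern epithelial junctions 0 were called by edgeR, with 0 higher and 4 lower at an unadjusted p below 0.05 (median -0.09). DESeq2 called 1 lower, Elf3, named after its value was seen, and limma-voom 0. Klf4 was at 0.03 ± 0.18 (edgeR adjusted p = 0.953) and Esrp1, a splicing regulator counted in this list, at -0.09 ± 0.13 (adjusted p = 0.757).

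**Figure D4:**
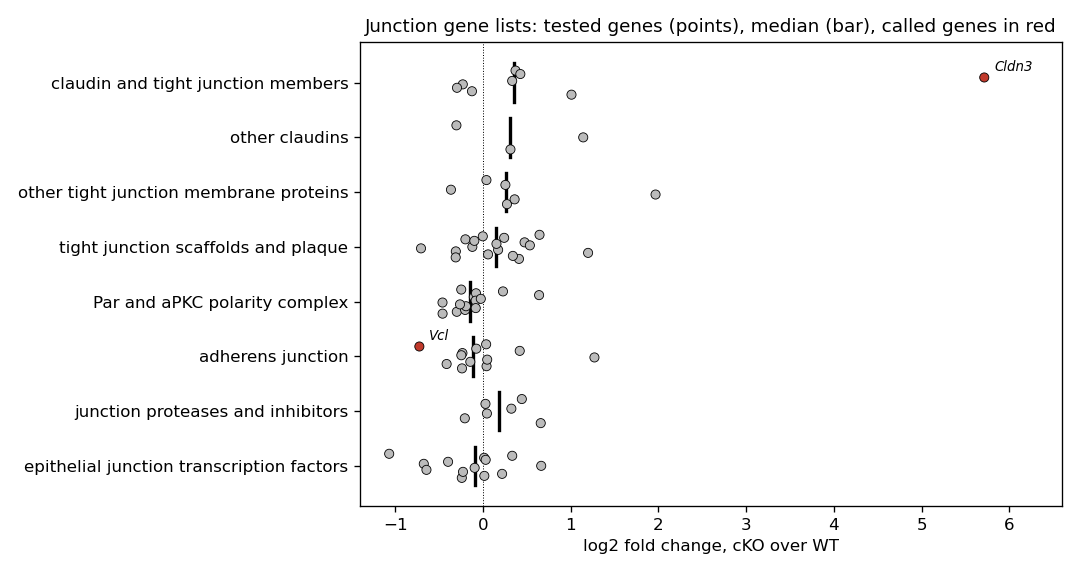
Log2 fold change of cKO over WT (horizontal axis) for each tested gene of 8 junction lists, with the list median as a bar and called genes in red. Cldn3 and Vcl are the called genes, and the medians lie between -0.15 and 0.35.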

How the data were processed

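Sample titles gave the genotype of each of the 8 mouse epidermis libraries. The authors deposited read counts and FPKM values for each gene, and HISAT2 and HTSeq are named per the submitters' processing notes. The sources used here do not state versions, annotation, genome build or strand setting. For 20863 of 20863 genes counted in 2 or more libraries, the deposited FPKM equals the count divided by the column total and 1 gene length (tolerance 1e-04), so it serves for levels between genes and as an alternative scale only. FPKM carries no TMM factor.

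Counts were filtered with filterByExpr (14004 of 23171 genes kept), scaled with TMM factors, and tested with edgeR 4.0.16 (R 4.3.3) by the quasi-likelihood method without covariates. Adjusted p-values are Benjamini-Hochberg values over the 14004 genes, and a gene is called below 0.05. SEs are those implied by the F statistic. On simulated counts of 14004 genes, 67% of 100 genes changed 2-fold and 91% of 100 changed 4-fold were recovered, with 166 called and 8 of these false. The changed genes were drawn only from those above a minimum mean count, which Cldn3 did not reach. Recovery of genes with so few reads was not simulated. Libraries of a genotype differed by a chi-square of at least 47.9 per degree of freedom, so none was a copy of another up to counting error. That cannot show that each came from its own mouse. Each was counted as a replicate because the design text speaks of 4 mice per genotype. The members, lists and rules were chosen with earlier results of these data known. All 9 members are named. Of each other junction list the called genes are named, with the 2 of highest FPKM that did not pass, and others, marker genes included, were named after their values were seen. Of the genes this rule would name, 2 are not reported here. Log2 CPM used a prior count of 2. Alternatives were DESeq2 1.42.0, limma-voom (limma 3.58.1), RLE factors, library size only, 2 count filters, limma on log2(FPKM + 1) and log2(FPKM + 0.1), the replicate number as a block, and leaving out each library.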

Additional observations from a re-analysis of the deposited data

Results flagged for a closer look

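Ocln in WT replicate 3 stood apart from its group, at 30.3 CPM against 18.6 CPM in the next highest WT library, a gap of 0.845 of the range of the 4 libraries. Each of the 8 tested members was examined in both genotypes, 16 groups in all, and this was the 1 group with a lone library by Dixon's 95% limit, which chance passes in about 1 of 20 groups. The same library was also the highest WT library for Cldn4, Tjp1 and F11r.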

How the results depend on the processing

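The Cldn3 call held in 9 of 10 other settings and in 7 of 8 fits that left out a library. The exceptions were log2(FPKM + 1) without a filter, where the log2 fold change was 1.43 on that compressed scale (adjusted p = 0.0652), and the fit without WT replicate 3 (adjusted p = 0.0735). In both of these 0 members were called, against 1 otherwise, and the cause was not tested. With a filter, log2(FPKM + 1) gave the same log2 fold change for Cldn3, 1.43, at a limma adjusted p of 0.0217. Leaving out single libraries, the Cldn3 log2 fold change ran from 5.32 to 6.27 and the count of called members from 0 to 1. The other tested members were called in none of these fits and kept their sign in all. The 185 genes called became 1266 with DESeq2, 349 without a count filter, 19 on unfiltered log2(FPKM + 1), and 8 to 506 with a library left out (20, 506, 66 and 213 without cKO replicates 1 to 4, 34, 36, 8 and 23 without WT replicates 1 to 4).

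With the replicate number as a block, 216 genes and 1 member were called, with Cldn3 at 5.62 (adjusted p = 0.0267) and Cldn23 passing (adjusted p = 0.0199). The markers that did not pass were Krt79 (0.0534), Gata6 (0.063), Lgr6 (0.0604), Cidea (0.0832), Slc12a2 (0.0866), Krt18 (0.0996) and Tgm3 (0.0534), in adjusted p. The numbers were not shown to pair the samples: same-numbered libraries correlated at -0.10 to 0.19 in their deviations from the group means, and 2 of 4 cKO libraries correlated best with their own number. Among the other genes named, the near-0 values of 3 turned sign when a library was left out: Klf4 (-0.062 to 0.18), Lsr (-0.11 to 0.12) and Spint2 (-0.024 to 0.10). Cldn7 and 12 of the 15 other claudin genes had too few counts to be tested at this depth.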
